A study of Mus musculus with 3 samples.

Results

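Voltage-gated and potassium channel genes of mouse neural retina are described here from 3 oligonucleotide arrays. The genes were chosen by symbol alone. They are the genes whose symbols start with Kcn, Cacn, Hcn or Clcn, or with Scn and a number, and that have a probe set annotated to 1 symbol. This gave 68 genes of 8251, with 88 of 12422 probe sets that are not controls. Every symbol matched a RefSeq gene of GRCm38.p6.

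The study measured a single group, with no control samples analysed here. All mice were Rp1 knockouts (Rp1-/-) on a mixed 129/SvEv and C57BL/6 background, killed at postnatal day 21. Each of the 3 RNA samples pooled the neural retinas of 3 to 4 mice, taken between 1 and 2 pm, and went onto 1 array whose title names the U74Av2 design. Rp1, a microtubule-associated protein gene of photoreceptors, was itself not analysed here, so the genotype rests on the labels. No contrast between conditions can be made, and no p-value is given. In a pool of whole retina, fewer cells of a type and less RNA per cell cannot be told apart.

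Channel proteins of these families set the resting potential, the light response and the transmitter release of retinal neurons. Potassium channels hold cells near rest and repolarise them, and photoreceptors signal light by a graded change of voltage that HCN and potassium channels of the inner segment shape. Calcium channels at the ribbon synapse couple this voltage to glutamate release, sodium channels carry the spikes of ganglion and some amacrine cells, and ClC proteins move chloride across the surface and endosomal membranes.

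Signals are linear intensities after scaling of the arrays to a common trimmed mean. A signal is called above background here if it passed a limit set on that array by 19 controls for yeast and bacterial genes, namely their 95th percentile. The limits were 160.3, 80.7 and 107.1 in replicates 1, 2 and 3, so replicate 1 had the highest. Where a fold is given below as at least a value, the highest signal was divided by the limit of an array that did not pass it. Such a fold holds for these scaled signals only. No background was subtracted for it, and another scaling would change it. The 3 arrays had deposited medians of 296, 216 and 250 at trimmed means of 500.2, 500.3 and 500.2. Of the retinal markers measured, 6 of 6 rod, 3 of 3 cone and 3 of 4 bipolar genes were above background on all 3 arrays. So were 4 of 4 amacrine and horizontal, 4 of 4 ganglion and 5 of 5 Müller glia genes, where 60.7% of all measured genes were. Of other markers it was 5 of 5 lens, 3 of 4 endothelium and 3 of 6 pigment epithelium and melanocyte genes. It was 2 of 4 for blood, 2 of 5 for smooth muscle and stroma and 1 of 6 for skeletal muscle. Lens and endothelium markers thus passed as well, and these counts alone do not single out retina. Summed signals of pigment epithelium and melanocyte markers were 2031, 12917 and 8368 in replicates 1, 2 and 3, and those of blood markers 5490, 31716 and 8254. Lens markers summed to 104119, 165255 and 121463. Pools thus differed in genes of blood and of tissues next to the retina, and the part of these tissues in the channel signals was not tested.

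Promoter sequences are shown for 3 genes that stand for the patterns described below: Kcnj4, whose signal was highest in replicate 1, Kcnk4, whose signal was below the limit there, and Kcnma1, whose signals stayed within a log2 range of 0.52. The windows run from 250 bases before to 50 after the RefSeq start (build GRCm38.p6), at chr15:79505192-79505491, chr19:6934466-6934765 and chr14:24004156-24004455, all on the minus strand. Capitals mark the letters of a GC box (GGGCGG) or, in Kcnj4, also of the right part of the RE1 element bound by the repressor REST (GGACAGCG), on either strand.
Kcnj4: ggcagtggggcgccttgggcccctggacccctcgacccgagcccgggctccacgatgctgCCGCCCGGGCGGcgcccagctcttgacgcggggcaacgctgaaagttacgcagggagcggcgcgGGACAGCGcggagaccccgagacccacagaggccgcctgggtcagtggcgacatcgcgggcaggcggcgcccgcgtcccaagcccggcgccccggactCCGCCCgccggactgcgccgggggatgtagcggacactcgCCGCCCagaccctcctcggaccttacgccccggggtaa
Kcnk4: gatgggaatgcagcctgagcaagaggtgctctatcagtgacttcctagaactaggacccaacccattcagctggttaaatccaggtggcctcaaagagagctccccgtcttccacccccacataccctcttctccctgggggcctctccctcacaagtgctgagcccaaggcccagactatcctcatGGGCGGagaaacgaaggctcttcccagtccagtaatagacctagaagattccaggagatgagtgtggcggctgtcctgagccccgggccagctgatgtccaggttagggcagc
Kcnma1: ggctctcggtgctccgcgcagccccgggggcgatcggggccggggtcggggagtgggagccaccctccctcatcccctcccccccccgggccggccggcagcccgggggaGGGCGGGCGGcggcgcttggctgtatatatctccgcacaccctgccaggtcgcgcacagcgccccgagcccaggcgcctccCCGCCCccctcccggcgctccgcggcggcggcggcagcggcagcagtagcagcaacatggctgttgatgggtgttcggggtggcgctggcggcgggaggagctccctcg

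Over the 53 genes with a window in the RefSeq table (70 windows), the median GC content was 59.3% and the median number of CG pairs was 11, against 52.7% and 7 over all 32851 windows. A GC box was found in 50% of the channel gene windows and in 35.7% of all windows. A TATA box (TATAAA) was found in 7.14% against 13.6%, and the core letters bound by the photoreceptor factor CRX (TAATCC) in 5.71% against 7.06%. The RE1 right part was found in 1 of the 70 windows, that of Kcnj4, and in 1.26% of all windows, while the left part (TCAGCACC) was found in none, against 1.65%. Motifs were searched on both strands, and GC boxes may overlap each other, as in Kcnma1. These matches describe letters in the windows.

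Of the 68 channel genes, 32 (47.1%) passed the limit in every pool, where 60.7% of all measured genes did. A further 22 were above it on 1 or 2 arrays, and 14 (20.6%) on no array, against 15.7% of all genes. The families differed in these counts. All 3 arrays detected 5 of 6 Clcn genes, 4 of 5 auxiliary subunits of calcium channels and both Hcn genes, but 3 of 13 pore and modifier subunits of the voltage-gated potassium channels Kcna to Kcnd and Kcns, and 3 of 11 inward rectifiers of the Kcnj family. No family count was tested. Probe sets respond differently to the same amount of transcript, so signals are compared between pools and not between genes. Counts refer to 1 probe set a gene, and the 18 genes with others are taken up again after the families.

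**Figure D1:**
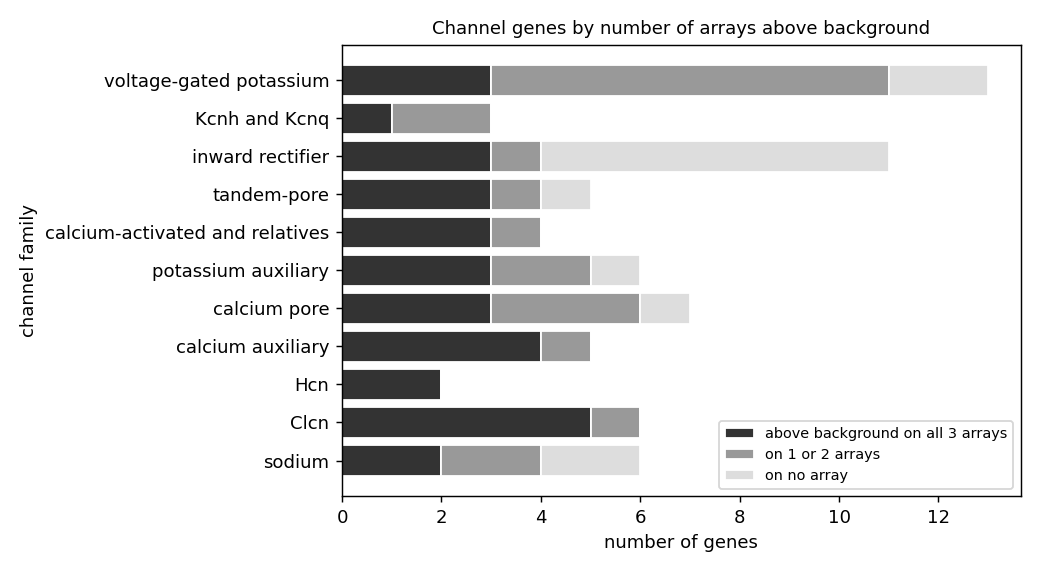
Number of channel genes in each family (y axis) that were above background on all 3 arrays, on 1 or 2 arrays, or on none (x axis, number of genes). Inward rectifiers have the most genes on no array, 7 of 11, and Clcn and Hcn genes have none there.

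Of the pore subunits of voltage-gated potassium channels, Kcna5, a delayed rectifier of the Shaker type, was among those above background in every pool. At the probe set used, Kcna5 had 1132, 1502 and 1387 in replicates 1, 2 and 3 (1340 ± 189, SD, n = 3). Its other probe set gave 45.3, 8.11 and 20.9 and was above background on no array. The other 2 genes above background on all arrays were Kcnd1, an A-type channel, at 249 ± 132, and Kcns2, a silent subunit that modifies other channels, at 197 ± 63.9 (SD, n = 3 each). Kcnd1 was 400.4 in replicate 1 against 168 and 178 in the other pools. The other 10 genes of the family were below the limit of at least 1 array.

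Several of these genes were below the limit in replicate 1 and above it in both other pools. Kcnd3, an A-type channel, was 63.7 in replicate 1 and 241 and 306 in replicates 2 and 3. Kcna2, an axonal channel, was 62.8 in replicate 1 and 192 and 177 in the others. Kcnc1, a channel of fast-spiking neurons, was 65.2, 190.4 and 197, and Kcna3, of the Shaker type, was 79.0, 139 and 234. Because replicate 1 is below its limit, the highest signal was at least 1.91-fold above it for Kcnd3, 1.20-fold for Kcna2, 1.23-fold for Kcnc1 and 1.46-fold for Kcna3.

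Other Shaker-type genes went the other way. Kcna6 was 320.4, 141 and 95.7 in replicates 1, 2 and 3, so that replicate 1 exceeded replicate 3 by at least 2.99-fold. Kcna1 was 188, 174 and 51.5, and Kcna4 was 184, 68.0 and 133. Kcns1, a silent subunit, was above background in replicate 3 alone (113), and Kcna7 on no array. Kcnd2, an A-type channel, was above background on no array at the probe set used, while its other probe set gave 137, 113 and 68.1 and passed the limit in replicate 2. In the mouse genome Kcna5, Kcna1 and Kcna6 are consecutive protein-coding genes, as are Kcna3 and Kcna2. Of the first run, Kcna5 alone was above background on all arrays at the probe sets used, with Kcna1 and Kcna6 below the limit in replicate 3. Kcna3 and Kcna2 shared their pattern, both below the limit in replicate 1 and above it in the other pools.

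Kcnh2, the ERG channel gene, had 909, 1202 and 1246 in replicates 1, 2 and 3 (1119 ± 183, SD, n = 3). Its relative Kcnh1, of the EAG type, was 507 in replicate 1 and below the limit in the other pools, at 31.8 and 28.6. On these scaled signals replicate 1 was thus at least 6.29-fold above replicate 2 and at least 4.74-fold above replicate 3. Kcnq1, a channel of heart and epithelia, was above background in replicate 2 alone at the probe set used (131), while another of its probe sets gave 538, 533 and 992 and was above background on all arrays.

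Inward rectifiers pass potassium into the cell more readily than out of it, and those of glia and neurons stabilise the resting potential. Kcnj9, a subunit gated by G proteins, had 917, 511 and 703 in replicates 1, 2 and 3. Kcnj4, of the strongly rectifying type, had 804, 178 and 369, a 4.51-fold range. Kcnj11, the pore of the ATP-sensitive channel, had 456, 205 and 399, a 2.23-fold range. At the probe sets used, replicate 1 was the highest pool and replicate 2 the lowest in all 3 genes. Of all genes above background on all arrays, 42.6% were highest in replicate 1. The other probe set of Kcnj9 gave 87.9, 237 and 185, highest in replicate 2 and below the limit in replicate 1. Kcnj6 was 143 in replicate 1, below the limit, and 116 and 183 in the other pools. The other 7 were Kcnj1, known from kidney, the strong rectifiers Kcnj2 and Kcnj12, the G protein-gated Kcnj3 and Kcnj5, Kcnj8, the ATP-sensitive pore of vessels, and Kcnj15. At the probe sets used they were above background on no array, with means between 9.06 and 76.0. The other probe set of Kcnj15 gave 65.4, 21.9 and 113 and passed the limit in replicate 3.

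Tandem-pore channels carry background potassium current. Kcnk1 differed little between pools, with 921, 838 and 826 in replicates 1, 2 and 3 (862 ± 51.5, SD, n = 3). Kcnk7, a member for which no current of its own is known, had 274, 318 and 503. Kcnk2 had 266, 83.5 and 311, a 3.72-fold range, with replicate 2 the lowest and just above its limit. Kcnk4, a mechanosensitive channel, was 68.2 in replicate 1, below the limit, and 394 and 409 in the other pools, so that replicate 3 exceeded it by at least 2.55-fold. Kcnk2 and Kcnk4, both of the lipid- and stretch-sensitive type, were thus low in different pools. Kcnk3 was above background on no array.

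The large-conductance calcium-activated channel gene Kcnma1 had 2206, 1882 and 2698 in replicates 1, 2 and 3 (2262 ± 411, SD, n = 3). The small-conductance gene Kcnn1 had the widest range of all channel genes above background on all arrays, with 691, 129 and 296, a 5.37-fold range. The intermediate-conductance gene Kcnn4, known from blood cells and epithelia, had 671, 210 and 247. Blood markers summed to 5490, 31716 and 8254 in replicates 1, 2 and 3, and their part in the Kcnn4 signal was not tested. Kcnu1, a sperm channel, was above background in replicate 1 alone, with 247 there and 33.2 and 90.3 in the others, at least 3.06-fold above replicate 2.

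Of the auxiliary subunits of potassium channels, the 3 cytoplasmic beta subunits were above background on all arrays. Kcnab3 had the smallest range of all channel genes above background on all arrays, with 311, 323 and 331 in replicates 1, 2 and 3. Kcnab2 had 1643, 1679 and 1122, and Kcnab1 had 385, 579 and 407. The other probe set of Kcnab1 gave 102, 99.1 and 138 and was below the limit in replicate 1. Kcne1, the small membrane partner of Kcnq1, was above background in replicate 1 alone (164) and Kcne1l in replicate 2 alone (94.8). Kcnmb1, the beta subunit that Kcnma1 has in smooth muscle, was above background on no array, with 42.1, 3.81 and 12.7 in replicates 1, 2 and 3. The 5 smooth muscle and stroma markers summed to 1259, 2402 and 2622, and 2 of the 5 were above background on all arrays.

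**Figure D2:**
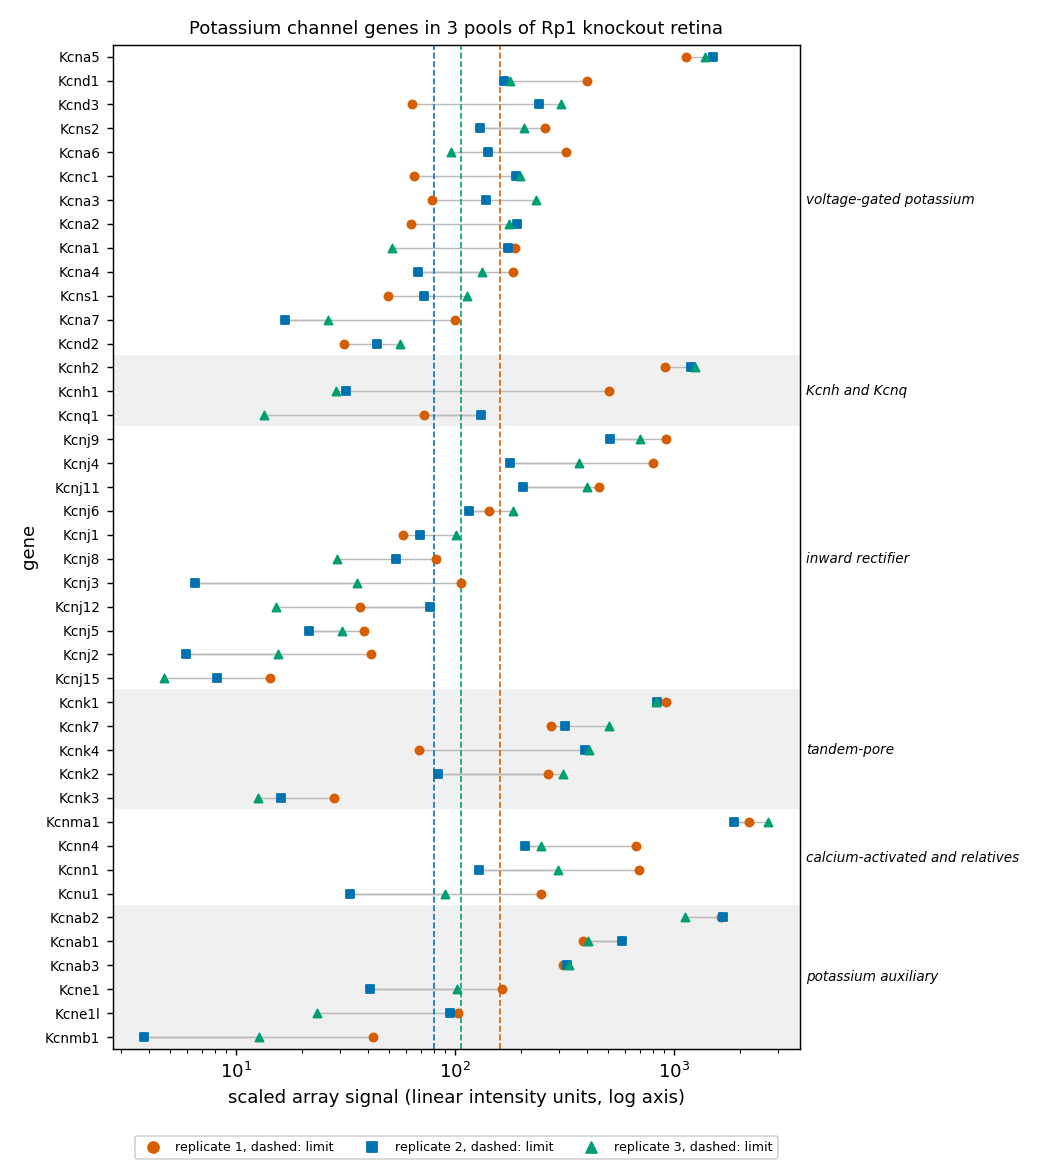
Scaled signal (x axis, log axis, intensity units) of the potassium channel genes (y axis, by family, in order of mean signal) in replicate 1 (circles), replicate 2 (squares) and replicate 3 (triangles), with the background limit of each array as a dashed line of the same colour. The 3 points of Kcnma1, Kcna5 and Kcnh2 lie close to one another within each gene, and Kcnh1 is above the limit in replicate 1 alone.

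Calcium channel pore subunits set which current a cell carries. Cacna1b, the N-type channel of synapses, had 562, 352 and 640 in replicates 1, 2 and 3. Cacna1c, an L-type channel, had 440, 242 and 350. Cacna1a, the P/Q-type channel, was 879 in replicate 1, 86.6 in replicate 2, just above the limit of 80.7, and 97.9 in replicate 3, below the limit. Replicate 1 was 10.1-fold above replicate 2 and at least 8.21-fold above replicate 3 for Cacna1a. The T-type genes Cacna1g (102, 307 and 205) and Cacna1h (136, 175 and 128) were below the limit in replicate 1 and above it in the other pools. Cacna1e, the R-type channel, was above background on no array at the probe set used, although another gave 624 in replicate 1.

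Auxiliary subunits set the surface level and gating of calcium channels. Cacnb2, the beta subunit that the photoreceptor synapse of the mouse requires, had 1393, 1821 and 2169 in replicates 1, 2 and 3 (1794 ± 389, SD, n = 3). Cacna2d3 had 1896, 1629 and 1366 (1630 ± 265, SD, n = 3). Cacng2, stargazin, which also serves glutamate receptors of the AMPA type, had 905, 360.2 and 509.7. Cacna2d1 was 59.1 in replicate 1, below the limit, and 206 and 143 in the others. Cacnb2 was lowest and Cacna2d3 highest in replicate 1, so the subunits did not share an order.

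Channel genes known from skeletal muscle were also measured. Cacng1, the gamma subunit of the muscle calcium channel, had 360.2, 151 and 116, and its pore subunit Cacna1s had 242, 158 and 116. Clcn1, the muscle chloride channel, was above background in replicate 2 alone at the probe set used, with 75.3, 255 and 79.8, but in replicate 1 alone at its other probe set, with 240.3, 25.7 and 16.2. The 6 skeletal muscle markers summed to 946, 736 and 735 in replicates 1, 2 and 3, and 1 of 6, Mylpf (228, 159 and 199), was above background on all arrays. Mylpf, Tnnt3 (289, 68.8 and 36.9), Tnnc2 (173, 17.0 and 22.6) and Myh4 (128, 5.61 and 4.20) were highest in replicate 1. Cacng1 and Cacna1s were also highest there. Tnnt3 and Tnnc2 were above background in replicate 1 alone, and Myh4 on no array. Ckm (71.3, 299 and 266) and Acta1 (56.7, 186 and 206) were lowest in replicate 1. Of all genes with mean signals from 100 to 300, 54.0% were highest in replicate 1, as were 59.2% of those under 100. The part of muscle tissue in these signals was not tested.

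Hcn2 and Hcn3 carry the current that opens on hyperpolarisation. Hcn2 had 2033, 1110 and 1835 in replicates 1, 2 and 3 (1659 ± 486, SD, n = 3), although the other probe set for Hcn2 gave 254, 111 and 86.2. Hcn3 had 611, 508 and 991 (704 ± 254, SD, n = 3). At the probe sets used, replicate 2 was the lowest pool for both genes, by less than 2-fold. The other probe set of Hcn2 was lowest in replicate 3, where it was below the limit.

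Clcn3, an exchanger of endosomes and synaptic vesicles, had 3993, 5985 and 4834 in replicates 1, 2 and 3 (4937 ± 1000, SD, n = 3), and its 3 other probe sets averaged 1302, 1513 and 996. All 4 were lowest in replicate 1. Clcn4 had 1451, 1112 and 1268, and Clcn5 had 283, 362 and 354, and both encode endosomal exchangers. The other probe set of Clcn5 gave 135, 109 and 211 and was below the limit in replicate 1. Clcn2, a surface channel whose loss in mice leads to photoreceptor degeneration, had 246, 161 and 218. Clcn7, the lysosomal exchanger, had 174, 301.0 and 585 at the probe set used, but 2181, 1341 and 1695 at another. Replicate 1 was thus the lowest pool at the first and the highest at the second.

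Of 6 sodium channel genes, 2 were above background on all arrays at the probe sets used, Scn8a and Scn1a, both pore subunits found in axons. Scn8a had 1030 in replicate 1 against 286 and 362 in the other pools, a 3.60-fold range. Scn1a went the other way, with 311, 579 and 528, and its other probe set gave 862, 1763 and 1161. A further probe set of Scn8a was above background on no array. Ganglion cell markers summed to 6033, 4615 and 4066 in replicates 1, 2 and 3, thus highest where Scn8a was highest and Scn1a lowest. Their part in either signal was not tested. Scn7a, a sodium-sensing relative, was above background in replicate 1 alone (241, with 79.0 and 92.1), as was Scn10a of sensory neurons (165, with 58.1 and 34.0). Scn3a and Scn9a were above background on no array. In the mouse genome Scn1a, Scn9a and Scn7a are consecutive protein-coding genes, and of the 3 only Scn1a was above background on all arrays.

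**Figure D3:**
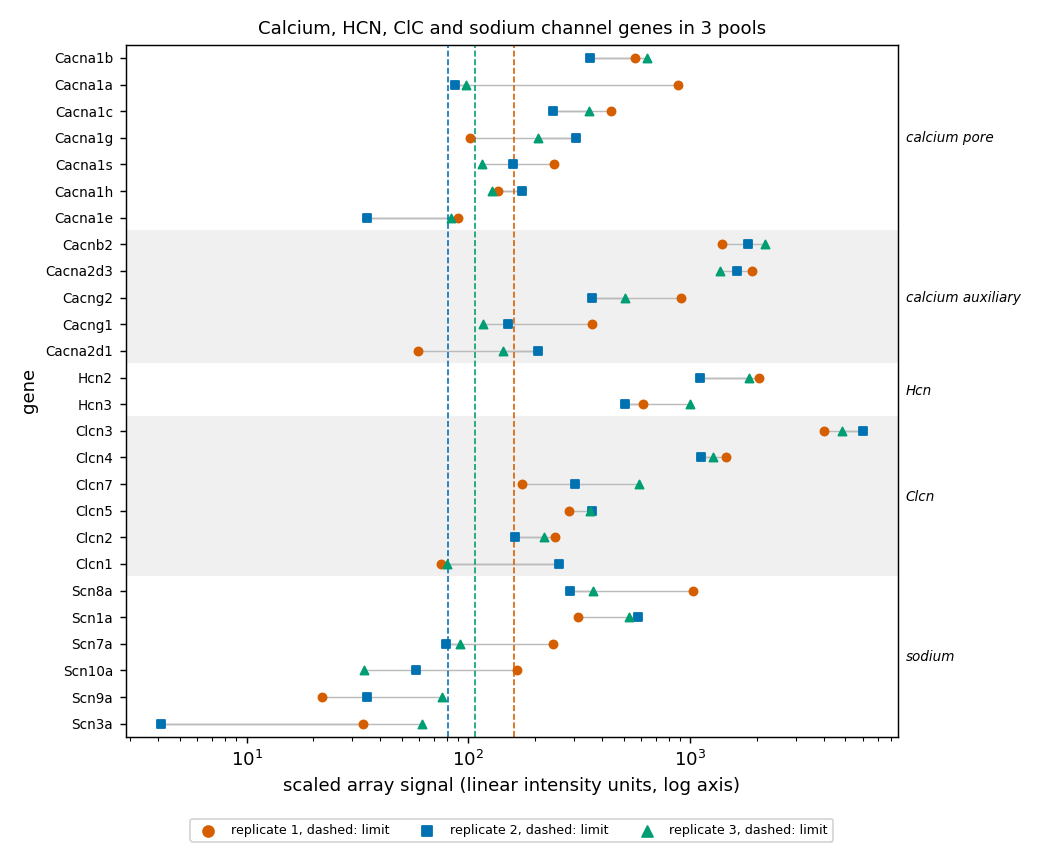
Scaled signal (x axis, log axis, intensity units) of the calcium, HCN, ClC and sodium channel genes (y axis, by family, in order of mean signal) in replicate 1 (circles), replicate 2 (squares) and replicate 3 (triangles), with each array's background limit as a dashed line. Every point of Clcn3, Hcn2 and Cacnb2 lies right of the limits, and Cacna1a and Scn8a stand out to the right in replicate 1.

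The 32 genes above background on all arrays differed in how far the pools lay apart. The highest pool was 2-fold or more above the lowest (a log2 range of at least 1) for 11 of 32 (34.4%), against 28.3% of all genes. These were Kcnn1, Kcnj4, Kcnk2, Scn8a, Clcn7, Kcnn4, Cacng1, Cacng2, Kcnd1, Kcnj11 and Cacna1s. Under median scaling Cacna1s, Cacng2, Kcnd1 and Kcnj11 no longer reached it, while 4 others did (34.4%, against 34.2% of all genes), and under quantile normalization Cacna1s, Kcnd1 and Kcnj11 did not. Replicate 1 was the highest pool for 9 of the 11 (81.8%), against 58.5% of all genes with such a range, and replicate 3 was highest for Clcn7 and Kcnk2. Replicate 2 was the lowest pool for 8 of the 11. The share of all genes lowest in replicate 2 was not computed, so this count is not read as a trait of channel genes. A range under 0.5 was found for 7 of 32 (21.9%), against 30.4% of all genes: Kcnab3, Kcnk1, Clcn5, Clcn4, Kcna5, Kcnh2 and Cacna2d3.

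For a given gene the range over 2 pools cannot exceed that over 3, so pairs of pools are set beside each other here. Between replicates 2 and 3 alone, 3 of the 41 channel genes above background on both (7.32%) differed by 2-fold or more, against 5.66% of all genes. These 3 were Kcnk2, Kcnn1 and Kcnj4, each higher in replicate 3. Between replicates 1 and 3 it was 8 of 33 channel genes, against 913 of 5136 of all genes. Between replicates 1 and 2 it was 11 of 35, against 1140 of 5213. Across the 32 genes, log2 signals of replicates 2 and 3 correlated with r = 0.92, and those of replicate 1 with r = 0.80 to both, against 0.94 and 0.82 over all 5006 genes above background. These correlations are across genes, which are not independent replicates and share the probe response.

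Over the 32 genes the median SD was 0.46 on the log2 scale, against 0.36 for all genes. Replicate 1 was the highest pool for 17 (53.1%), replicate 2 for 6 (18.8%) and replicate 3 for 9 (28.1%), against 42.6%, 33.0% and 24.4% of all genes. The median deviation of a pool from the mean of the other pools was 0.32, -0.41 and 0.08 in replicates 1, 2 and 3, against 0.06, -0.01 and -0.04 over all genes. These values depend on the scaling. With arrays scaled to a common median, replicate 1 gave -0.029, against -0.28 for all genes, and replicate 2 gave -0.08, against 0.32. Replicates 1, 2 and 3 were then the highest pool for 11, 11 and 10 of the 32 genes, that is 34.4%, 34.4% and 31.2%, against 23.9%, 55.3% and 20.9% of all genes.

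These deviations went with signal level. In the band of mean signals from 300 to 1000, which held 18 channel genes, replicate 1 deviated by 0.42 and replicate 2 by -0.68, against 0.14 and -0.04 for the 2883 genes of the band. With median scaling these were 0.07 and -0.35, against -0.21 and 0.29. From 100 to 300, with 23 channel genes, the values were 0.65 and -0.31, against 0.43 and -0.28. For the 9 channel genes at 1000 or more they were -0.03 and 0.07, against -0.25 and 0.26. For the 18 channel genes under 100 replicate 1 deviated by 0.90, against 0.87 for all such genes. Under the trimmed mean scaling, genes of low signal were thus higher in replicate 1 over the whole array, channel genes or not.

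**Figure D4:**
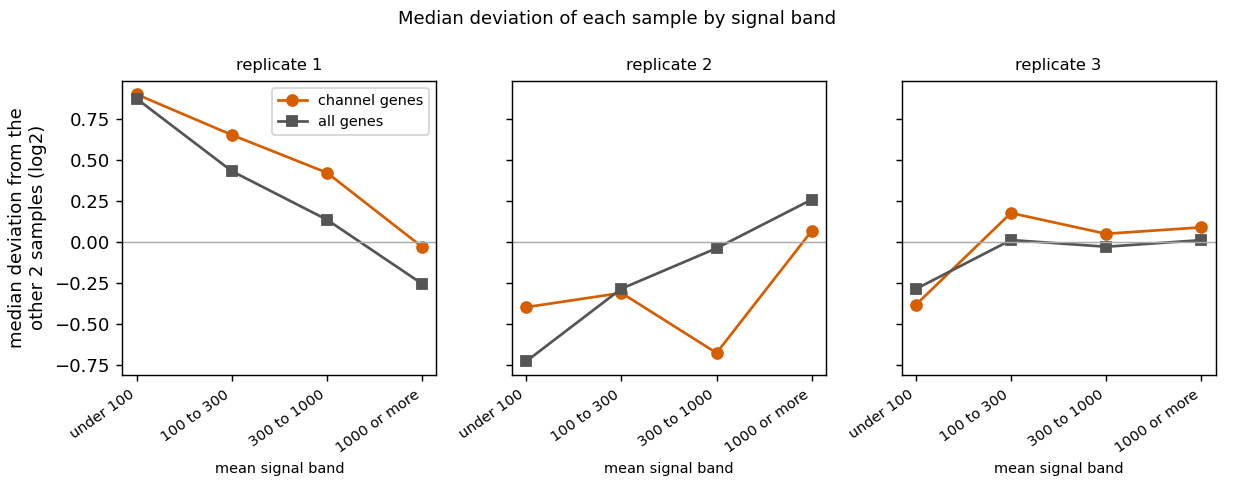
Median deviation of each replicate from the mean of the other 2 samples (y axis, log2) by band of mean signal (x axis), for channel genes (circles) and all genes (squares). In replicate 1 both lines run down with signal, and in replicate 2 channel genes between 300 and 1000 lie at -0.68, below all genes at -0.04.

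Detection at the probe sets used also differed by pool. Below the limit in replicate 1 and above it in both other pools were 9 of 68 channel genes (13.2%), against 8.88% of all genes: Kcnk4, Kcnd3, Kcna2, Kcna3, Kcnc1, Kcnj6, Cacna1g, Cacna1h and Cacna2d1. Above it in replicate 1 alone were 5 (7.35%), against 4.63%: Kcnh1, Kcnu1, Kcne1, Scn7a and Scn10a. Of the first 9, Cacna1g, Cacna1h and Kcnj6 had signals of 102 to 143 in replicate 1, which would have passed the limit of replicate 2.

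Different probe sets of a gene could give different orders of the pools. Of the 18 channel genes with more than 1 probe set, 5 had all of them above background on all arrays, 7 had some and 6 had none. Of the 5 with all above background, namely Clcn3, Clcn4, Clcn7, Kcnab2 and Scn1a, the same pool was highest at every probe set for 2, Clcn4 and Scn1a, and the lowest pool was also the same for 1, Scn1a. For Kcnj9 the second probe set gave 87.9, 237 and 185 where the used set gave 917, 511 and 703, and for Kcnab2 it gave 954, 580 and 674 where the used set gave 1643, 1679 and 1122. An order of pools read from 1 probe set is therefore given for that probe set.

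**Figure D5:**
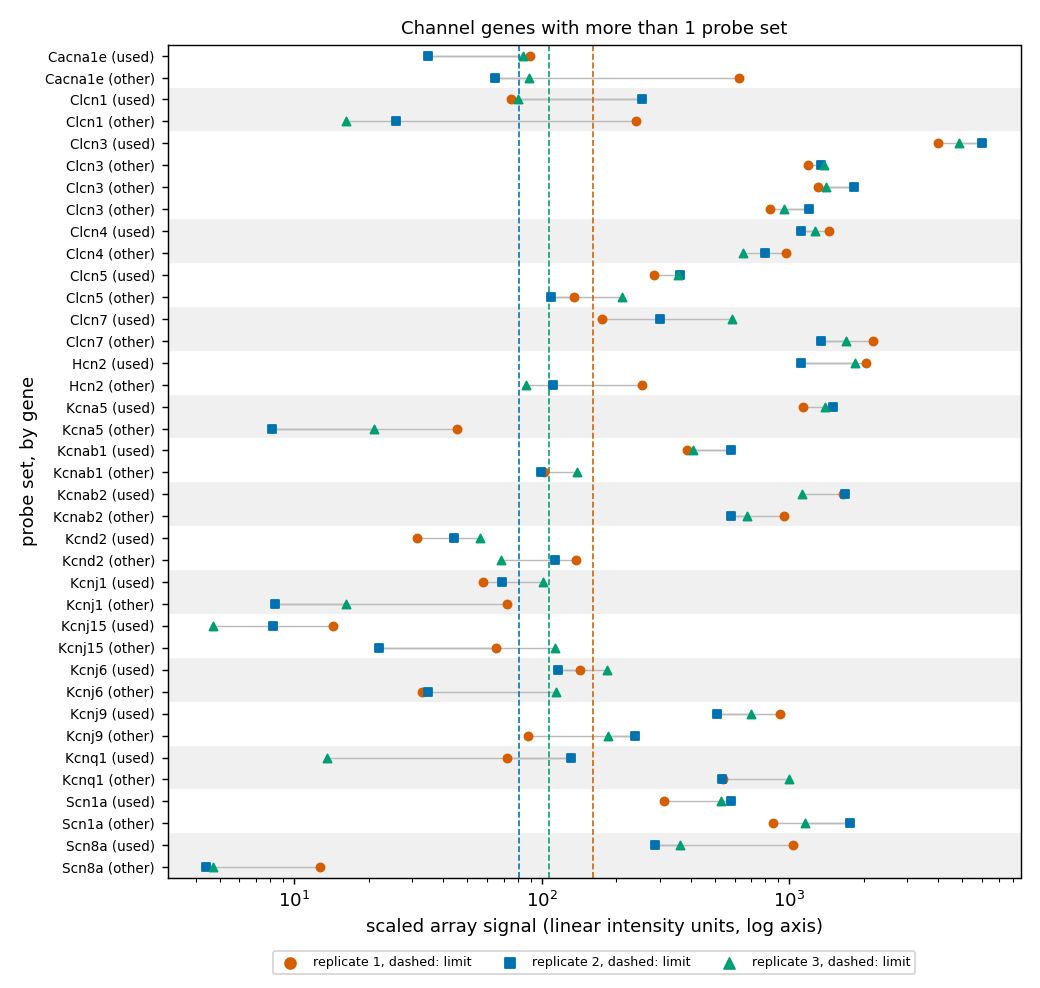
Scaled signal (x axis, log axis, intensity units) of each probe set (y axis) of the 18 channel genes with more than 1, in replicate 1 (circles), replicate 2 (squares) and replicate 3 (triangles), with each array's background limit as a dashed line. The sets of Scn1a keep the same order of pools, whereas replicate 1 is highest at 1 set of Kcnj9 and below its limit at the other, and those of Clcn7 differ on whether replicate 1 is lowest or highest.

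A list of other genes of channel function held other channels, anchors, scaffolds, modulators, active zone genes and genes of ion gradients. Of its 36 measured genes, 28 (77.8%) were above background on all 3 arrays, where 60.7% of all genes were. A range of 1 or more was found for 6 of the 28 (21.4%), against 28.3% of all genes. All 4 measured genes of the complex that anchors potassium and water channels in Müller glia were above background with such a range. Aqp4, the water channel, had 650.4, 1395 and 1347 in replicates 1, 2 and 3. Dag1, encoding dystroglycan, had 473, 633 and 1143, Dtna, encoding dystrobrevin, had 502, 397 and 847, and Dmd, encoding dystrophin, had 502, 207 and 258. They did not share an order, since Aqp4 and Dag1 were lowest in replicate 1 and Dmd was highest there. Of the scaffold and membrane proteins that gather channels, 8 of 9 were above background. Sptbn1, a spectrin, had 2868, 2955 and 3142. Ank3, which gathers sodium channels at the axon start, had 1235, 1811 and 1409. It was highest in replicate 2, where Scn8a was lowest and Scn1a highest. Dpp6, a partner of A-type channels, had 708, 1043 and 1451. It was lowest in replicate 1, where Kcnd1 was highest and Kcnd3 lowest and below the limit. The rod channel gene Cnga1 had 3223, 3030 and 1972, and the active zone genes Ctbp2 and Pclo had 3875, 3769 and 3462, and 886, 766 and 867.

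Of 35 symbols listed for channels known from retina, 18 were measured. Of these 12 (66.7%, against 60.7% of all genes) were above background on all arrays, 5 on 1 or 2 and 1, Kcnj2, on none. Cacna1s, described above with the muscle genes, is among the 12, and Kcnq1, described as a channel of heart and epithelia, among the 5. The other symbols of that list were not analysed here.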

How the data were processed

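The values the authors deposited are linear intensities, 1 for each of 12488 probe sets on an array, and no detection calls were used. The software, background correction and scaling target are not given in the sources used here. Each array was multiplied by 1 factor (0.998, 1.00 and 1.00 in replicates 1, 2 and 3) to a common 2% trimmed mean over probe sets that are no controls. For log2 values, signals under an array's 5th percentile were set to it. Symbols came from the platform annotation of the array; probe sets with 1 symbol gave 8251 genes. For each gene a plain-suffix probe set was preferred, then the highest mean; 18 channel genes have more than 1. Replicate numbers follow accession order and only name the pools.

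The channel genes, the lists and the alternatives were chosen with earlier results of these data known. The naming rule took, per family, the 3 genes with the highest mean above background on all arrays, the 8 widest ranges, genes on 1 or 2 arrays whose highest signal was 3 times the limit where they were lowest, a list of channels known from retina, and genes with several probe sets, 47 genes in all; the others are named because every gene is accounted for, and were chosen after their values were seen. No test was run, since there is 1 group. Alternatives changed the limit, the probe set, the array scaling, the floor, a pseudocount and the range threshold, and left out each sample. No per-sample column was left unused (0). Range and scaling code was tested on simulated data. The scripts used matplotlib 3.10.9, pandas 2.3.3 and numpy 2.4.6 under Python 3.11.15. Promoter sequences are from RefSeq, GRCm38.p6. The number of arrays limits the precision, and pools differ by animals and by array.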

Additional observations from a re-analysis of the deposited data

How the results depend on the processing

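The count of channel genes above background on all arrays was 32, and between 26 and 33 with the highest control or an array's own 40th percentile as limit, or with another choice of probe set. With the median of the controls as limit it was 56, against 7081 of all genes. Of the 56, 32 had a range of 1 or more (57.1%, against 42.9% of all genes above that limit). The median SD of the 56 was 0.69, against 0.46 for all genes above it. The count with a range of 1 or more was 11, but 6 with the 40th percentile as limit (23.1%, against 24.2% of all genes) and 7 at a range threshold of 1.5 (21.9%, against 9.81%). Median scaling and quantile normalization each gave 11 again (34.4%, against 34.2% and 25.4% of all genes), of which 7 and 8 were the same genes. The median deviation of replicate 1 became -0.029, from 0.32, with arrays scaled to a common median. Leaving out replicates 1, 2 and 3 in turn gave 41, 33 and 35 channel genes above background, against 5739, 5136 and 5213 of all genes. Among them 3, 8 and 11 channel genes had a range of 1 or more, against 325, 913 and 1140 of all genes. The median SD was 0.32, 0.32 and 0.48, against 0.24, 0.33 and 0.37. The cause of these changes was not tested. Of 47 mean signals of genes chosen by the naming rule, 0 moved by over 1.5-fold under either scaling and 6 did with the highest-mean probe set (Cacna1e, Clcn7, Kcnd2, Kcnj15, Kcnq1 and Scn1a). Leaving out a sample moved 11 by over 1.5-fold: 9 without replicate 1 (Cacna1a, Cacng1, Kcnh1, Kcnj2, Kcnj4, Kcnn1, Kcnn4, Kcnu1 and Scn8a), among them Kcnh1 with 30.2 against 189 and Cacna1a with 92.3 against 355, and Clcn1 and Kcnq1 without replicate 2. Except for Kcnj2, the 9 genes moved without replicate 1 were named for a wide range or a high signal over the limit. Each was highest in replicate 1, so a lower mean without that pool is built in. No paired analysis was possible because there is 1 group.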
